A study of Mus musculus with 10 samples.

Results

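The interleukin 1 system was followed here through 10 genes that were picked by name for their roles. They are the agonists Il1a, Il1b and Il18, the antagonists Il1rn and Il18bp, the decoy receptor Il1r2, the signalling receptor subunits Il1r1 and Il1rap, and the processing genes Casp1 and Nlrp3. All 10 were present among the 13809 genes of the deposited expression values and all passed the filter on low values. RNA sequencing was done on 10 libraries from bone marrow of C57BL/6 mice aged 12 weeks, in 4 groups. The first group, with 3 libraries, was resident macrophages exposed for 4 h to LPS at 1 µg/ml (lipopolysaccharide, an outer membrane molecule of bacteria that TLR4 senses). Another 3 libraries came from untreated resident macrophages. The remaining groups, with 2 libraries each, were bone marrow derived macrophages (BMDM) given the same LPS dose for 4 h and untreated BMDM. The labels give 4 h for the untreated cells of both origins too. Resident macrophages were the ferromagnetic marrow cells that an unstained sample left behind on a magnetic column, and they were labelled CD163+. BMDM were the cells that passed through that column and were then cultured with 20% L929 cell supernatant, for 6 days in the protocol and 7 days in the sample titles, and they were labelled CD163-. The labels do not say whether libraries of a group came from separate animals or cultures, so the p-values rest on variation among these libraries, which may be technical.

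Interleukin 1 alpha and interleukin 1 beta bind the same receptor, IL1R1, which signals with its partner IL1RAP through MyD88 to NF-kB. The receptor antagonist encoded by Il1rn occupies IL1R1 without signalling, and IL1R2 binds the ligands but lacks the signalling domain. Interleukin 1 beta and interleukin 18 are made as precursors that caspase-1 cuts once a sensor such as NLRP3 has assembled an inflammasome, and the secreted interleukin 18 binding protein neutralizes mature interleukin 18. In macrophages, LPS is the standard priming signal that raises Il1b and Nlrp3 transcripts before an inflammasome is triggered. The libraries hold transcript levels only, so cutting and secretion of these proteins were not measured.

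Values are normalized reads, that is, gene reads scaled by the authors with a single factor for each library. With that factor undone, the libraries held 27.1 to 37.7 M reads. When library totals were made equal, the median log2 change of all genes shifted to -0.12 for LPS in resident cells and -0.64 for LPS in BMDM, and to -0.08 and 0.35 for resident against BMDM when untreated and under LPS. The share of called genes that were higher was then 27.1% in place of 56.9% for LPS in resident cells, 21.7% in place of 49.0% for LPS in BMDM, 68.2% in place of 51.5% for resident against BMDM under LPS, and 75.2% in place of 45.5% for the difference of responses. All 14 macrophage markers were above 10 normalized reads in every group, and Cd163 read 4131 to 6476 and 5282 to 10740.4 in LPS-treated and untreated resident libraries, against 14.4 to 14.9 and 41.9 to 53.9 in LPS-treated and untreated BMDM. A set of 14 neutrophil markers summed to 1.05% to 1.26% of LPS-treated resident libraries and 0.715% to 1.49% of untreated resident libraries, against 0.0162% to 0.0169% of LPS-treated BMDM and 0.0104% to 0.0105% of untreated BMDM. In BMDM, 3 defining neutrophil genes, Elane, Ly6g and Retnlg, were at or under 10 in every library. Some other genes of that set were well above 10 there. Csf3r read 4365 and 4171 in LPS-treated BMDM and 693 and 725 in untreated BMDM, against 4498 to 6624 in resident libraries. Mmp8 read 915 to 1131 and Mmp9 344 to 784 in BMDM. Marker sums of other lineages were also higher in every resident library than in every BMDM library. Erythroid markers summed to 0.083% to 0.130% of resident libraries, against at most 0.000248% of BMDM, where 6 of 8 were at or under 10, and megakaryocyte markers to 0.0412% to 0.15%, against at most 0.0042%. B lineage markers summed to 0.0111% to 0.0291% of resident libraries, against at most 0.000621% of BMDM, where 5 of 8 were at or under 10, and monocyte markers to 0.0688% to 0.162%, against 0.0231% to 0.0532%. The monocyte markers did not all go the same way. Chil3, Ly6c2 and F13a1 were higher in every resident library. Ms4a6c was higher in every BMDM library, at 20055 and 18683 with LPS, against at most 2742 in resident libraries. Cx3cr1 and Ccr2 were highest in untreated BMDM. T and NK, stromal and the joint eosinophil, basophil and mast markers were also higher in resident libraries, at sums of at most 0.0218%, while dendritic markers overlapped. The T and NK sum rested mostly on Cd4, at 1925 to 3435 in resident libraries, where Cd3e, Cd3d and Cd3g read at most 31.4. Single markers of these lists also went the other way. Siglecf was higher in every BMDM library than in any resident library, as were Klrb1c in untreated BMDM and Pdgfrb and Kdr in LPS-treated BMDM. Neutrophils and monocytes themselves transcribe several interleukin 1 genes, and the part of all these cells in the resident values was not tested. In each resident group, replicate 1 held Y-linked transcripts and replicates 2 and 3 did not.

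The promoter windows of Il1a, Il1b, Il1rn and Nlrp3 are shown because these 4 members had the largest changes with LPS in resident cells and also rose in BMDM. They come from RefSeq on build GRCm38.p6 and run 5′ to 3′ on the gene's strand, over 250 bases before and 50 bases after an annotated start. Il1a lies on the minus strand with its window at chr2:129309923-129310222, Il1b on the minus strand at chr2:129371090-129371389, Il1rn on the plus strand at chr2:24336610-24336909, and Nlrp3 on the plus strand at chr11:59541319-59541618. For Il1rn and Nlrp3, which have 3 and 2 windows, the window nearest to the annotated gene start is shown. Gene totals do not tell which start their transcripts used. Capitals mark matches to any of 6 motifs, read on both strands.
Il1a: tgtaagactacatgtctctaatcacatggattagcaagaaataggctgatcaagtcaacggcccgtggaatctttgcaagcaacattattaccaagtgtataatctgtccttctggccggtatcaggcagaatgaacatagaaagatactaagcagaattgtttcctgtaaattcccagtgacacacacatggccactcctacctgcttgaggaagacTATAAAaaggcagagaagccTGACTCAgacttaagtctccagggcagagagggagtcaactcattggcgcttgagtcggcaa
Il1b: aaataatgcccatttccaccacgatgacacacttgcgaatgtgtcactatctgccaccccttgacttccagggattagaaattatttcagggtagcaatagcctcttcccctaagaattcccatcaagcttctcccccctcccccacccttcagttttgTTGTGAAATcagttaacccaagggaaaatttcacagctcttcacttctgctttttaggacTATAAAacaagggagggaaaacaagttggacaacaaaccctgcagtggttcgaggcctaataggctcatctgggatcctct
Il1rn: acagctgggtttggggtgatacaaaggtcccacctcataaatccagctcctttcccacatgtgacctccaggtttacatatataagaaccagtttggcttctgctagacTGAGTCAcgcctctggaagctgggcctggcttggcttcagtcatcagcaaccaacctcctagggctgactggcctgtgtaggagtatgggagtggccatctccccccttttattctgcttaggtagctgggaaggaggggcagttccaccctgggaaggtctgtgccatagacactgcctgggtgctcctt
Nlrp3: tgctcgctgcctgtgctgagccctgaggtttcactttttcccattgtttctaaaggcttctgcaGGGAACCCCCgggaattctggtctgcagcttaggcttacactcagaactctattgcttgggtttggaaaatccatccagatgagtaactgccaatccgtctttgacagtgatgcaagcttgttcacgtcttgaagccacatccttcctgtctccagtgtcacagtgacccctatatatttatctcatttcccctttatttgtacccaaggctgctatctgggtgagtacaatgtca
The Il1a window held an AP-1 match (TGANTCA) beginning 12 bases before the start and a TATA box (TATAAA) beginning 32 bases before it. The Il1b window held a TATA box 31 bases before the start and a C/EBP match (TTNNGNAAT) 91 bases before it. The Il1rn window held an AP-1 match 141 bases before its start, and the Nlrp3 window an NF-kB match 186 bases before its start.

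All 10 members matched RefSeq windows, 14 in number, and the same motifs were counted over 32817 windows of all genes. NF-kB letters occurred in 8.46% of all windows and in those of Nlrp3 and Il1r1. AP-1 letters occurred in 7.81% of all windows and in those of Il1a and Il1rn, and the TATA box letters in 13.6% of all windows and in those of Il1a, Il1b, Il18 and Il1rn. For Il18 and Il1rn these letters were read on the other strand, as TTTATA. They began 175 bases before the start in Il18, and 14 bases after the start in an Il1rn window not shown. C/EBP letters occurred in 11.5% of all windows and in those of Il1b, Il1rn and Il1r1, and in an Il1r1 window they overlapped the NF-kB match. For Il1rn they lay only in the windows not shown. The interferon-stimulated response element occurred in 3.43% of all windows and in that of Il1rap. The PU.1 letters AGGAAGT occurred in 9.35% of all windows and in none of the members'. These are letter matches in a short window and were not set against binding data.

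Under LPS, 5 of the 10 members were higher and none lower in resident cells, while 9 were higher and none lower in BMDM (limma with Benjamini-Hochberg adjustment, adjusted p under 0.05 over 13755 genes). Of all tested genes, 12.9% were called in resident cells, 7.36% higher and 5.57% lower, and 57.8% were called in BMDM, 28.3% higher and 29.5% lower. The 5 members called in both origins were Il1a, Il1b, Il1rn, Il1rap and Nlrp3. Casp1, Il18, Il18bp and Il1r2 were called in BMDM and not in resident cells, and Il1r1 was called in neither. The median log2 change of the members was 0.47 in resident cells and 3.27 in BMDM, against 0.00 and -0.04 over all genes. The groups did not overlap for 5 members in resident cells and for all 10 in BMDM, against 27.1% and 84.4% of all genes. The resident changes of the 5 called members were positive in libraries with and without Y-linked transcripts: between the 2 libraries that held them and among the other 4 they were 1.58 and 2.15 for Il1a, 1.85 and 2.15 for Il1b, 1.34 and 1.58 for Il1rn, 1.03 and 0.66 for Il1rap, and 1.27 and 1.34 for Nlrp3. No BMDM library held such transcripts.

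**Figure D1:**
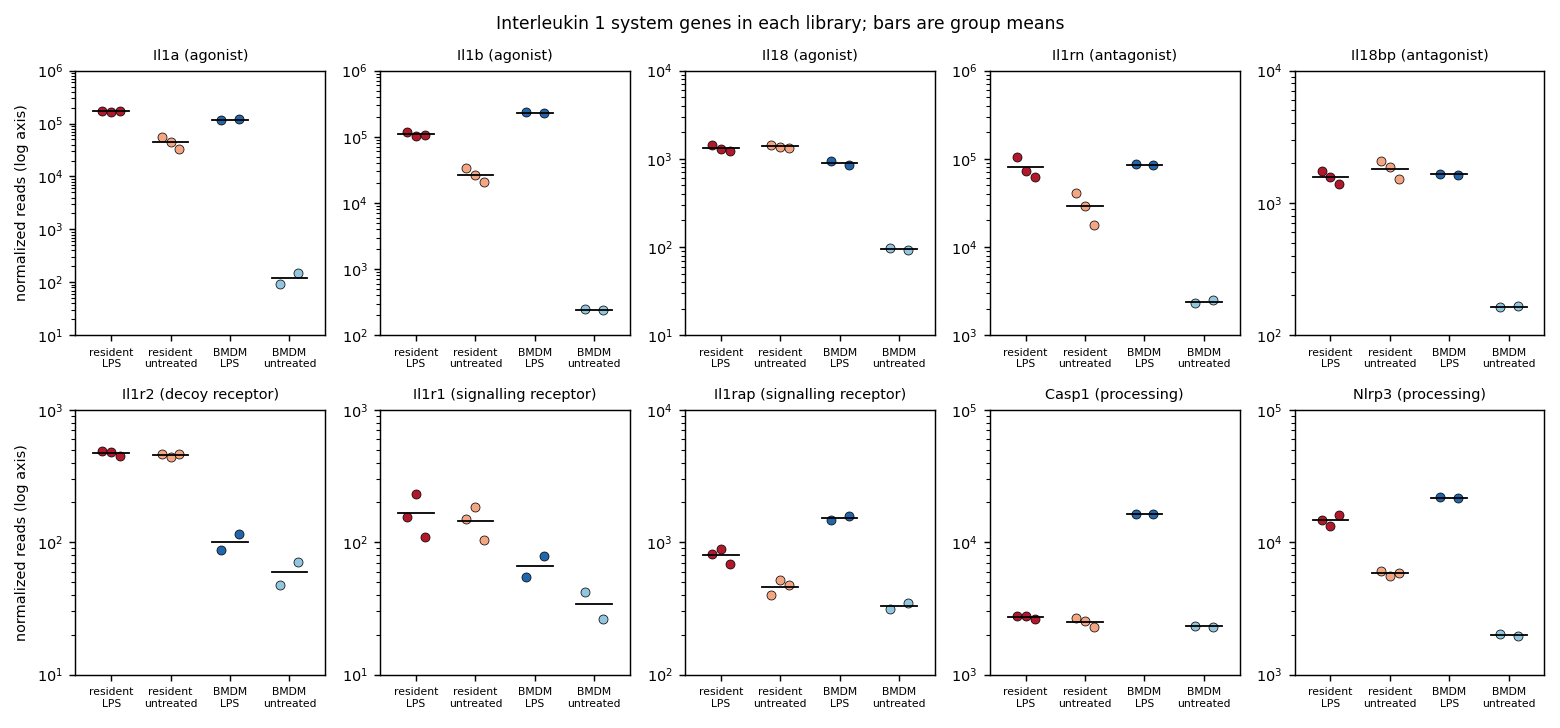
Normalized reads of the 10 genes in each library on a log axis, with 3 LPS-treated and 3 untreated resident libraries and 2 LPS-treated and 2 untreated BMDM libraries; points are libraries and bars are group means. Untreated BMDM sit lowest for 9 of the 10 genes without touching another group, while Casp1 lies between 2279 and 2783 in 3 groups and is high in LPS-treated BMDM.

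Between origins, untreated resident cells were higher than untreated BMDM for 9 members and lower for none, against 71.9% of all genes called, 39.2% higher and 32.6% lower. The groups did not overlap for 9 members, against 82.7% of all genes. Under LPS the members split, with 3 higher and 4 lower in resident cells than in BMDM, against 36.7% and 34.5% of all genes and 71.3% in either direction. The groups did not overlap for 8 members, against 82.4% of all genes. The test of the difference between the LPS responses called 9 members, each with the smaller change in resident cells, against 22.8% of all genes called in that direction, 19.0% in the other and 41.8% in either. These comparisons share their libraries, so their values stand side by side and are not independent of each other. The 10 members together took 1.20% to 1.28% of normalized reads in LPS-treated resident libraries, 0.314% to 0.466% in untreated resident libraries, 1.23% to 1.25% in LPS-treated BMDM and 0.0301% to 0.0312% in untreated BMDM. In these bulk libraries, more cells that transcribe a gene and more RNA of it per cell cannot be told apart.

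**Figure D2:**
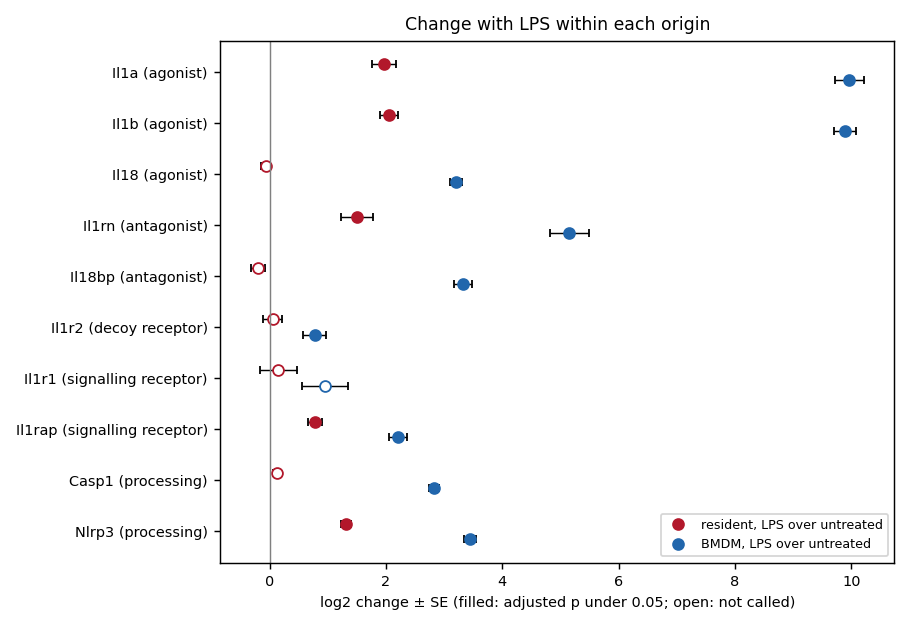
Log2 change with LPS (point) and its standard error (bar) for each member in resident cells, drawn above, and in BMDM, drawn below; filled points passed the adjusted p threshold of 0.05. The BMDM change exceeds the resident change for every member, from -0.20 to 2.05 in resident cells and from 0.78 to 9.96 in BMDM.

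Il1a encodes interleukin 1 alpha, an agonist that is active without caspase-1 and can act as an alarm signal from dying cells (chr2:129299610-129309972, mm10). It had 168966, 167933 and 171867 normalized reads in LPS-treated resident libraries and 56442, 44640.1 and 32619 in untreated resident libraries, against 116434 and 120937 in LPS-treated BMDM and 93.9 and 148 in untreated BMDM. No 2 groups overlapped, and untreated resident libraries already stood far above untreated BMDM. Il1a rose with LPS by 1.96 ± 0.20 (log2 change ± SE) in resident cells, limma adjusted p 0.000437, and by 9.96 ± 0.25 in BMDM, limma adjusted p 4.98e-10. Untreated resident cells were higher than untreated BMDM by 8.51 ± 0.23 (limma adjusted p 8.08e-10). Under LPS the resident libraries lay above BMDM by 0.52 ± 0.23, which was not called (limma adjusted p 0.0635), although it was called in 6 of 22 alternatives, with a change of 1.55 after quantile normalization. The RNA Gm14023, which overlaps Il1a on the other strand, had 199, 234 and 269 normalized reads in LPS-treated resident libraries, 103, 89.3 and 88.6 in untreated resident libraries, 152 and 175 in LPS-treated BMDM, and 8.20 and 13.7 in untreated BMDM. Use of strand in counting is not given in the sources used here, so reads from the shared stretch cannot be told apart.

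Il1b encodes interleukin 1 beta, the agonist that depends on caspase-1 for its release in active form (chr2:129364570-129371139, mm10). It had 119893, 101091 and 107677 normalized reads in LPS-treated resident libraries and 33295, 26496 and 20716 in untreated resident libraries, against 237366 and 227193 in LPS-treated BMDM and 249 and 240.4 in untreated BMDM. No groups overlapped here either, but LPS-treated BMDM, not resident cells, held the highest values. Il1b rose by 2.05 ± 0.15 in resident cells and by 9.89 ± 0.19 in BMDM (limma adjusted p 9.93e-05 and 1.26e-10). Resident cells exceeded BMDM by 6.74 ± 0.17 when untreated, and under LPS the difference was -1.09 ± 0.17, lower in resident cells (limma adjusted p 6.62e-10 and 0.000245). The antisense RNA Il1bos, which overlaps Il1b, read 53.6, 80.5 and 89.3 in LPS-treated resident libraries, 16.9, 38.9 and 21.9 in untreated resident libraries, 151 and 139.5 in LPS-treated BMDM and the floor value of 1 in both untreated BMDM libraries.

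Il1a and Il1b stood in different proportions in the 2 origins. The ratio of Il1a to Il1b, singled out after its values were seen, was 1.41, 1.66 and 1.60 in LPS-treated resident libraries and 1.70, 1.68 and 1.57 in untreated resident libraries, against 0.491 and 0.532 in LPS-treated BMDM and 0.377 and 0.616 in untreated BMDM. Ratios here are of normalized reads within a library, so the library factor cancels. Every resident library lay above every BMDM library, and within each origin the treatments overlapped. The difference between origins was 1.60 on the log2 scale under LPS and 1.78 untreated, each with a 2-sided exact permutation p of 0.1, the smallest that 3 against 2 libraries allow.

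Il18 encodes interleukin 18, an agonist that induces interferon gamma in lymphocytes (chr9:50554827-50581840, mm10). It had 1422, 1296 and 1241 normalized reads in LPS-treated resident libraries and 1440.3, 1362 and 1341 in untreated resident libraries, against 942 and 848 in LPS-treated BMDM and 98.4 and 93.2 in untreated BMDM. The resident groups overlapped, whereas the BMDM groups stood well apart from each other and below both resident groups. Il18 changed by -0.07 ± 0.08 in resident cells, which was not called (limma adjusted p 0.672), and rose by 3.21 ± 0.10 in BMDM (limma adjusted p 1.86e-09). Resident cells were higher by 3.84 ± 0.09 untreated and by 0.56 ± 0.09 under LPS (limma adjusted p 4.89e-10 and 0.000324). The genes Bco2 and Tex12 overlap Il18 on the other strand and read at most 194 and 10.8 in any library.

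Il1rn encodes the interleukin 1 receptor antagonist, in a secreted form and in forms that stay inside cells (chr2:24336853-24351494, mm10). It had 104211, 73208 and 62854 normalized reads in LPS-treated resident libraries and 41178, 28898 and 17807 in untreated resident libraries, against 86731 and 84688 in LPS-treated BMDM and 2321 and 2493 in untreated BMDM. LPS-treated resident and LPS-treated BMDM libraries overlapped, and the resident replicates were spread more widely than the BMDM replicates. Il1rn rose by 1.50 ± 0.27 in resident cells (limma adjusted p 0.00724, or 0.0609 when only the groups compared were fitted) and by 5.15 ± 0.33 in BMDM (limma adjusted p 3.95e-07). Untreated resident cells exceeded untreated BMDM by 3.52 ± 0.31 (limma adjusted p 3.04e-06). Under LPS the difference was -0.13 ± 0.31 (limma adjusted p 0.715), but after quantile normalization it turned to 0.65 and was called higher in resident cells (limma adjusted p 0.0499). With equal library totals it was 0.19, not called. The neutrophil markers, which summed to 0.715%, 1.18% and 1.49% of untreated resident replicates 1, 2 and 3, were lowest in the replicate with most Il1rn. That replicate also held Y-linked transcripts and the highest macrophage marker sum, 1.21% against 0.935% and 0.945%. Il1a and Il1b fell in the same order over these replicates. The part of these differences in the Il1rn spread was not tested.

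Il18bp encodes the secreted protein that neutralizes interleukin 18 (chr7:102014885-102018690, mm10). It had 1747, 1581 and 1398 normalized reads in LPS-treated resident libraries and 2078, 1856 and 1507 in untreated resident libraries, against 1666 and 1635 in LPS-treated BMDM and 162 and 165 in untreated BMDM. The other 3 groups overlapped, and untreated BMDM stood apart below them. Il18bp rose by 3.32 ± 0.15 in BMDM (limma adjusted p 1.93e-08). In resident cells its change was -0.20 ± 0.12, not called (limma adjusted p 0.333), and with equal library totals it was -0.32 and called (limma adjusted p 0.0395). Untreated resident cells were higher than untreated BMDM by 3.45 ± 0.13 (limma adjusted p 7.50e-09), and under LPS the difference of -0.07 ± 0.13 was not called (limma adjusted p 0.638), but with equal library totals it turned to 0.25 and was called higher in resident cells (limma adjusted p 0.0499). Il18bp overlaps Numa1, a gene of the other strand that read 2284 and 2247 in LPS-treated BMDM and 4507 and 4154 in untreated BMDM.

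The balance of agonist to antagonist was taken as Il1a plus Il1b over Il1rn in each library. It was 2.77, 3.67 and 4.45 in LPS-treated resident libraries and 2.18, 2.46 and 3.00 in untreated resident libraries, against 4.08 and 4.11 in LPS-treated BMDM and 0.148 and 0.156 in untreated BMDM. Both untreated BMDM libraries lay far below the other 8, and the treatments overlapped in resident cells. Per kb of exon the mean ratio was 10.3 and 7.23 in LPS-treated and untreated resident cells, against 11.7 and 0.435 in LPS-treated and untreated BMDM. With the longest coding transcript as the length it was 5.36, 3.74, 6.68 and 0.248 in the same groups, so the ratio was above 1 outside untreated BMDM with either length.

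With LPS the ratio was 27.0-fold higher in BMDM (log2 difference 4.75, exact permutation p 0.333, the smallest that 2 against 2 allow). In resident cells the log2 difference was 0.50, the groups overlapped and the exact permutation p was 0.2, where 0.1 is the smallest possible. Untreated resident cells exceeded untreated BMDM 16.6-fold (exact permutation p 0.1, the smallest possible), and under LPS the resident libraries spanned the BMDM values (log2 difference -0.20, exact permutation p 0.6). The LPS effect on the log2 ratio differed between origins by -4.26, resident minus BMDM, a value for which no test was made. Over the 24 ratio tests the lowest Benjamini-Hochberg adjusted exact permutation p was 0.3, so no ratio passed the adjustment in groups of this size. Within the resident libraries the log2 difference with LPS was 0.35 between the 2 with Y-linked transcripts and 0.57 among the 4 without.

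The agonists taken singly gave different orders. Il1b to Il1rn averaged 1.40 and 0.952 (geometric means) in LPS-treated and untreated resident cells, and 2.71 and 0.102 in LPS-treated and untreated BMDM. Il1a to Il1rn averaged 2.17 and 1.57 in LPS-treated and untreated resident cells, and 1.38 and 0.0490 in LPS-treated and untreated BMDM. Under LPS, then, resident cells were lower than BMDM for Il1b to Il1rn, with a log2 difference of -0.96, and higher for Il1a to Il1rn, with a log2 difference of 0.65. The libraries did not overlap in either case, with 2-sided exact permutation p values of 0.1 and 0.2.

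The ratio of Il18 to Il18bp moved little by comparison. It was 0.814, 0.820 and 0.888 in LPS-treated resident libraries and 0.693, 0.734 and 0.890 in untreated resident libraries, against 0.565 and 0.519 in LPS-treated BMDM and 0.607 and 0.564 in untreated BMDM. The ratio overlapped between treatments in each origin (exact permutation p 0.4 in resident cells and 0.667 in BMDM). Resident libraries lay above BMDM libraries, by 0.63 under LPS and 0.39 untreated on the log2 scale (exact permutation p 0.1 each, the smallest possible). Per kb of exon the mean ratio was 2.47 and 2.27 in LPS-treated and untreated resident cells and 1.59 and 1.72 in LPS-treated and untreated BMDM.

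**Figure D3:**
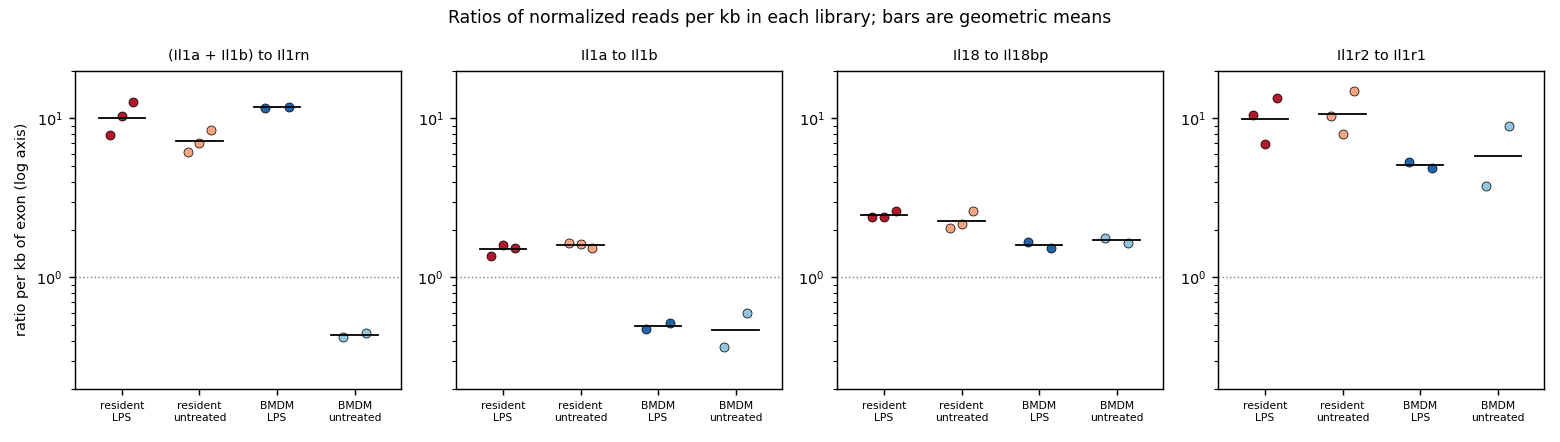
Ratios of normalized reads per kb of exon in each library on a log axis; points are libraries, bars are geometric means of a group and the dotted line marks equal levels. Agonist to antagonist is low only in untreated BMDM (0.425 and 0.446), whereas Il1a to Il1b separates resident from BMDM libraries whatever the treatment.

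The decoy receptor gene Il1r2 was higher in resident cells (chr1:40074079-40125231, mm10). It had 489.5, 482 and 447 normalized reads in LPS-treated resident libraries and 465, 438 and 465 in untreated resident libraries, against 87.4 and 115 in LPS-treated BMDM and 47.4 and 71.3 in untreated BMDM. The resident groups overlapped and lay above every BMDM library. Resident cells were higher by 2.22 ± 0.18 under LPS and by 2.95 ± 0.18 untreated (limma adjusted p 2.32e-06 and 2.55e-07). In resident cells its LPS change was 0.05 ± 0.16 (limma adjusted p 0.891), or -0.07 with equal library totals. In BMDM it was called higher by 0.78 ± 0.20 (limma adjusted p 0.0071), but not with equal library totals (0.17), without LPS replicate 2 (0.58), without untreated replicate 1 (0.49) or with only the groups compared. The difference of the LPS responses, -0.72 ± 0.26 (limma adjusted p 0.0458), was called in 8 of 21 alternatives.

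Il1r1, the receptor subunit that binds the ligands and signals, had the lowest level per kb of exon of the 10 members in every group (chr1:40225080-40317257, mm10). It had 154, 232 and 109.9 normalized reads in LPS-treated resident libraries and 149, 183 and 105 in untreated resident libraries, against 54.5 and 78.6 in LPS-treated BMDM and 41.9 and 26.5 in untreated BMDM. The lowest value rests on 29 reads. Resident libraries lay above BMDM libraries, while the resident groups overlapped with each other. Resident cells were higher by 2.06 ± 0.35 untreated and by 1.26 ± 0.35 under LPS (limma adjusted p 0.000438 and 0.00894), the second not called after quantile normalization (0.71) or without BMDM LPS replicate 1 (1.00). The LPS change was 0.15 ± 0.32 in resident cells and 0.95 ± 0.39 in BMDM, and neither was called (limma adjusted p 0.824 and 0.0581). In resident cells it turned to -0.12 without LPS replicate 2 and to -0.07 without untreated replicate 3. Replicate 2 held most Il1r1 in both resident groups and also the highest sums of stromal markers, 0.0167% with LPS and 0.016% untreated, and of megakaryocyte markers, 0.15% in each, whose part in the Il1r1 values was not tested.

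Per kb of exon, Il1r2 averaged 248 and 239 normalized reads in LPS-treated and untreated resident cells and 53.1 and 31.1 in LPS-treated and untreated BMDM, where Il1r1 averaged 26.0, 22.9, 10.5 and 5.38 in the same order. The decoy was thus above the signalling subunit in every group. The Il1r2 to Il1r1 ratio of normalized reads was 3.17, 2.08 and 4.06 in LPS-treated resident libraries and 3.12, 2.39 and 4.44 in untreated resident libraries, against 1.60 and 1.47 in LPS-treated BMDM and 1.13 and 2.69 in untreated BMDM. Both resident groups lay above LPS-treated BMDM, with a log2 difference of 0.96 between the LPS-treated cells of the 2 origins (exact permutation p 0.2). The treatments overlapped within each origin, and so did the untreated cells of the 2 origins.

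Il1rap, the accessory subunit shared by the interleukin 1, interleukin 33 and interleukin 36 receptors, followed another course (chr16:26581704-26730117, mm10). It had 818, 887 and 688 normalized reads in LPS-treated resident libraries and 400.4, 515 and 472 in untreated resident libraries, against 1482 and 1566 in LPS-treated BMDM and 312 and 347 in untreated BMDM. No groups overlapped, and LPS-treated BMDM were highest. Il1rap rose by 0.79 ± 0.12 in resident cells and by 2.21 ± 0.15 in BMDM (limma adjusted p 0.00334 and 4.98e-07). Under LPS it was lower in resident cells than in BMDM, with a difference of -0.94 ± 0.14 (limma adjusted p 0.000124). Untreated it was higher in resident cells by 0.48 ± 0.14 (limma adjusted p 0.00855), a call that was lost with equal library totals (0.32) and without BMDM untreated replicate 1 (0.40). The gene also yields a soluble form that lacks the signalling part, and gene totals do not separate the forms.

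Casp1 encodes caspase-1, the protease of the inflammasome (chr9:5298517-5307265, mm10). It had 2783, 2778 and 2609.6 normalized reads in LPS-treated resident libraries and 2652, 2549.6 and 2289 in untreated resident libraries, against 16255 and 16449.7 in LPS-treated BMDM and 2347 and 2279 in untreated BMDM. LPS-treated BMDM stood far above the other groups, untreated resident libraries overlapped both LPS-treated resident libraries and untreated BMDM, and LPS-treated resident libraries lay above untreated BMDM. Casp1 rose by 2.82 ± 0.09 in BMDM (limma adjusted p 1.43e-09), and its change of 0.13 ± 0.07 in resident cells was not called (limma adjusted p 0.276). Under LPS it was lower in resident cells by a log2 difference of -2.59 ± 0.08 (limma adjusted p 3.16e-09). Untreated, the difference was 0.11 ± 0.08 (limma adjusted p 0.234), but after quantile normalization it was -0.19 and called lower in resident cells (limma adjusted p 0.0309). With equal library totals it was -0.05, not called.

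Nlrp3 encodes the sensor that recruits caspase-1 through the adaptor ASC (chr11:59541568-59566956, mm10). It had 14677, 13190.3 and 15935.5 normalized reads in LPS-treated resident libraries and 6102, 5599.7 and 5893 in untreated resident libraries, against 21814.5 and 21498 in LPS-treated BMDM and 2024 and 1949 in untreated BMDM. The 4 groups did not overlap, and their order from high to low was LPS-treated BMDM, LPS-treated resident, untreated resident and untreated BMDM. Nlrp3 rose by 1.31 ± 0.08 in resident cells and by 3.45 ± 0.10 in BMDM (limma adjusted p 3.43e-05 and 1.01e-09). It was higher in resident cells by 1.56 ± 0.09 untreated, and under LPS lower, with a difference of -0.57 ± 0.09 (limma adjusted p 1.41e-07 and 0.000227).

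Set per kb of exon so that genes can be compared with each other, the leading member differed by group. In LPS-treated resident cells Il1a averaged 85911 ± 1033 normalized reads per kb and Il1b 57448 ± 5003, and in untreated resident cells 22577 ± 6034 and 14072 ± 3302 (SD, n = 3 each). In LPS-treated BMDM Il1b led with 121804 ± 3772 per kb over Il1a with 60124 ± 1613, whereas in untreated BMDM Casp1 led with 1545.03 ± 32.5 per kb, ahead of Nlrp3 with 489.6 ± 13.1 and Il1rn with 435 ± 22.0 (SD, n = 2 each). Il1rn came after both agonists in the other 3 groups. With the longest coding transcript as the length, Il1rn lay above Nlrp3 in untreated BMDM, and the lead of Il1a in resident cells shrank. Il1a over Il1b was then 0.968, 1.14 and 1.10 in LPS-treated resident libraries and 1.16, 1.16 and 1.08 in untreated resident libraries, so Il1b was the higher of the 2 in LPS-treated replicate 1 and the leading gene of resident cells rests on the length chosen.

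**Figure D4:**
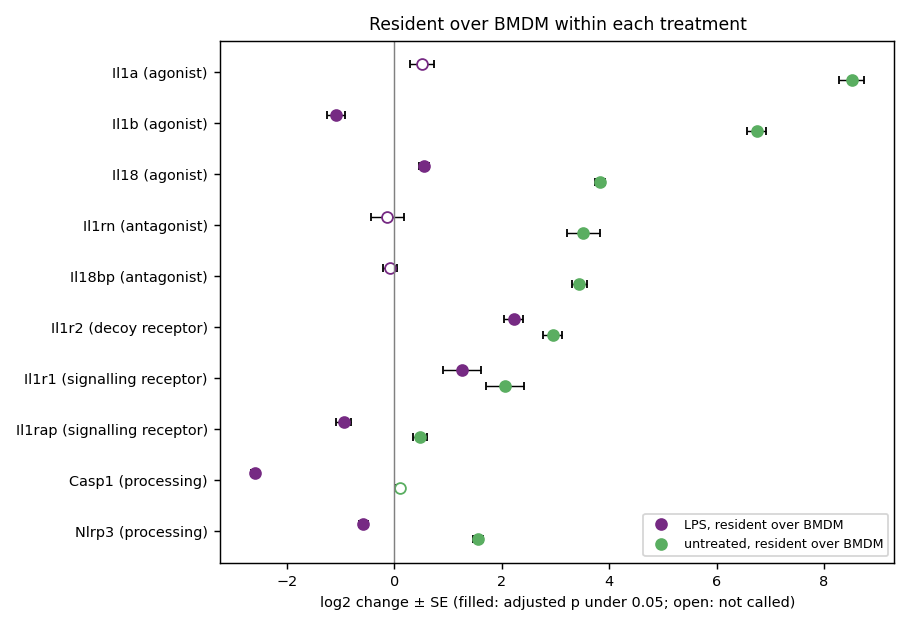
Log2 difference of resident over BMDM cells (point) and its standard error (bar) under LPS, drawn above, and untreated, drawn below; filled points passed the adjusted p threshold of 0.05. Untreated differences run from 0.11 for Casp1 to 8.51 for Il1a, and under LPS they run from -2.59 for Casp1 to 2.22 for Il1r2.

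The test of the difference between the responses placed the members in a wide range. It was -8.00 ± 0.32 for Il1a and -7.83 ± 0.24 for Il1b, resident minus BMDM, then -3.65 ± 0.43 for Il1rn, -3.52 ± 0.19 for Il18bp and -3.28 ± 0.13 for Il18. Casp1 (-2.69 ± 0.11), Nlrp3 (-2.13 ± 0.13) and Il1rap (-1.42 ± 0.19) followed, and limma adjusted p values for these 8 genes were between 8.67e-09 and 0.000188. For Il1r1 the difference of -0.80 ± 0.50 was not called (limma adjusted p 0.234).

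Neighbouring genes of the pathway were taken from 3 lists. Of 8 measured genes among the other interleukin 1 family ligands and receptors, 3 rose in resident cells and none fell, against 7.36% and 5.57% of all genes, and in BMDM 5 rose and 1 fell, against 28.3% and 29.5% of all genes. The median changes were 0.40 and 1.38, against 0.00 and -0.04 over all genes. Il1f9, an interleukin 36 ligand, had 10899, 8749 and 9883 normalized reads in LPS-treated resident libraries and 2895, 2909 and 4035 in untreated resident libraries, against 82.3 and 114 in LPS-treated BMDM and 8.20 and 11.0 in untreated BMDM. The rise was 1.60 ± 0.17 in resident cells and 3.22 ± 0.21 in BMDM (limma adjusted p 0.000516 and 4.15e-07). The resident libraries were above every BMDM library whether or not LPS was given.

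Il33, an alarm cytokine of the same family, read 922, 1315 and 914 in LPS-treated resident libraries and 291, 429 and 156 in untreated resident libraries, a rise of 1.94 ± 0.32 (limma adjusted p 0.00447). In BMDM it read 722 and 723 with LPS, against 1 and 1.83 in untreated libraries, the first of which is the floor. Il1f6, another interleukin 36 ligand, read 30.5, 52.6 and 43.2 in LPS-treated resident libraries and at most 3.81 in untreated ones, and in BMDM 22.6 and 8.13 with LPS and the floor value of 1 in both untreated libraries. Il18rap, the accessory subunit of the interleukin 18 receptor, rose in BMDM by 1.25 ± 0.22 (limma adjusted p 0.000642), with 172 and 175 normalized reads under LPS and 62.9 and 83.2 untreated. Il1rl1, the interleukin 33 receptor, fell in BMDM (log2 change -1.43 ± 0.24, limma adjusted p 0.000552), where it read 19.5 and 13.5 under LPS and 44.7 and 46.6 untreated.

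Of 20 genes of receptor signalling, 7 rose and 1 fell in resident cells, where 12.9% of all genes were called in either direction. In BMDM 14 rose and 4 fell, where 57.8% of all genes were called, and the median changes of the list were 0.19 in resident cells and 0.66 in BMDM. Irak3, which restrains signalling from this receptor, rose in resident cells by 1.39 ± 0.07 to 5376 ± 264 normalized reads under LPS, against 2058 ± 162 untreated (SD, n = 3 each), and in BMDM by 2.68 ± 0.09, with 3809 and 3614 normalized reads under LPS against 565 and 590.4 untreated. The kinase gene Map3k8 rose by 0.88 ± 0.10 in resident cells and by 3.21 ± 0.12 in BMDM, and Tnip1, an NF-kB inhibitor gene, by 0.54 ± 0.11 in resident cells and by 3.15 ± 0.13 in BMDM. Peli1, a ubiquitin ligase gene, rose by 0.54 ± 0.10 in resident cells and by 4.12 ± 0.13 in BMDM, where its relative Peli2 fell (-2.55 ± 0.27). The Peli2 change in resident cells was 0.07 ± 0.22 and was not called (limma adjusted p 0.891). Tab1, an adaptor of the kinase TAK1, fell in both origins (-0.39 ± 0.09 in resident cells, called in 16 of 22 alternatives, and -0.88 ± 0.11 in BMDM). Limma adjusted p values for the called changes were between 1.60e-09 and 0.0224.

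Of 23 inflammasome and pyroptosis genes, 2 rose and 3 fell in resident cells, against 7.36% and 5.57% of all genes, and 10 rose and 5 fell in BMDM, against 28.3% and 29.5% of all genes. The 15 of 23 called in BMDM stand against 57.8% of all genes called, and the median changes were 0.04 in resident cells and 0.34 in BMDM. Mefv, which encodes the sensor pyrin, rose by 1.14 ± 0.08 in resident cells and by 3.31 ± 0.10 in BMDM. Gbp5, a guanylate binding protein gene tied to NLRP3 assembly, rose by 1.06 ± 0.16 in resident cells and by 9.61 ± 0.19 in BMDM. Casp4, which encodes the mouse protease caspase-11 that senses LPS inside cells, had 7649 and 7634 normalized reads in LPS-treated BMDM and 387 and 442 in untreated BMDM, a rise of 4.20 ± 0.20. Its resident values were 7954, 6828 and 6027 with LPS and 6014, 4939 and 3686 untreated, and that change was not called (limma adjusted p 0.0596). In resident cells Tlr4, the LPS receptor gene, fell (-0.85 ± 0.10) and so did the sensor gene Nlrp1a (-1.04 ± 0.20), at levels of 12.8 ± 1.02 under LPS and 27.8 ± 6.28 untreated (SD, n = 3 each). The BMDM changes of Tlr4 (-0.14 ± 0.12) and Nlrp1a (-0.53 ± 0.25) were not called (limma adjusted p 0.352 and 0.093). In BMDM Nlrp1b (-3.22 ± 0.29) and the gasdermin gene Dfna5 (-2.53 ± 0.29) fell. Nlrp1a and Nlrp1b are near copies of each other, so the split of reads between them is uncertain. Limma adjusted p values for the called changes named here were between 1.39e-10 and 0.0101.

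**Figure D5:**
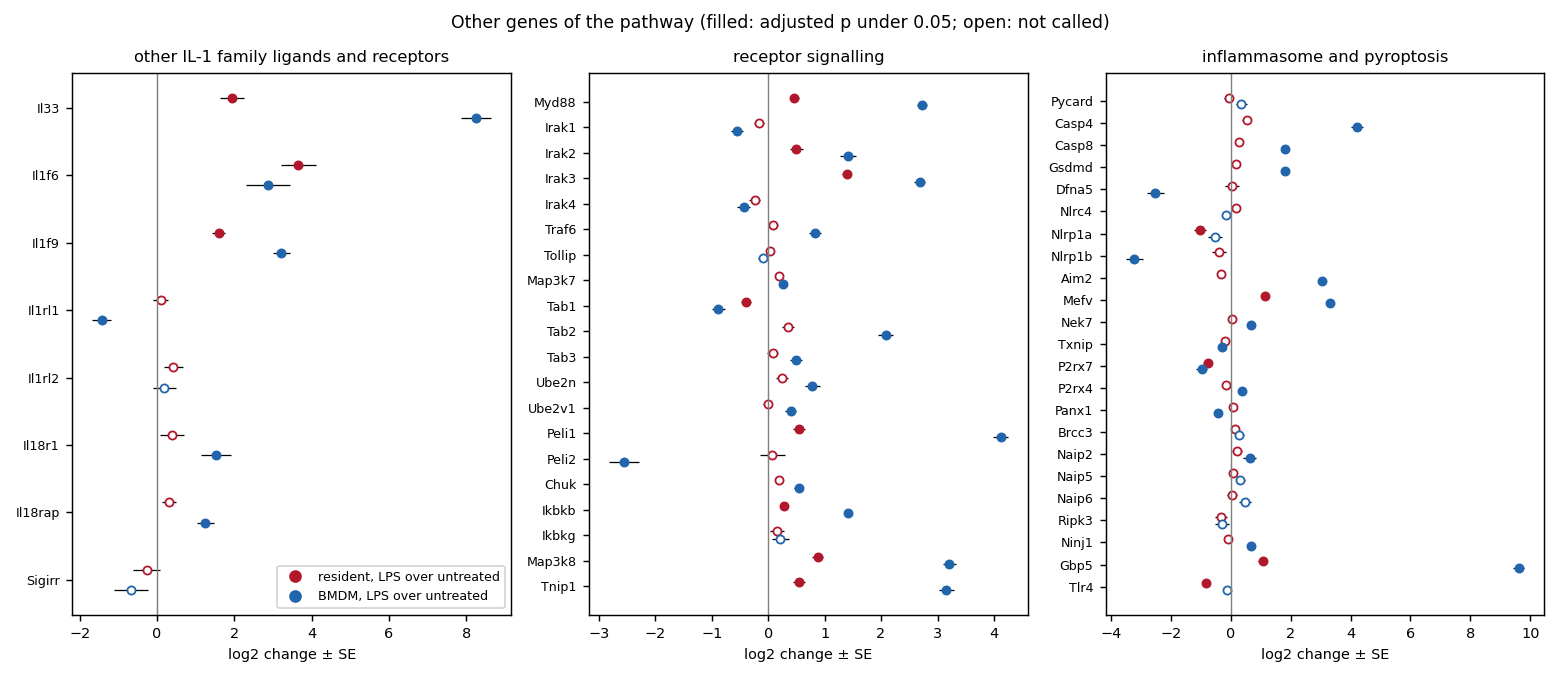
Log2 change with LPS (point) and its standard error (bar) for the genes of the 3 pathway lists, resident cells drawn above and BMDM below for each gene; filled points passed the adjusted p threshold of 0.05. In resident cells 12 of the 51 genes are filled to the right of 0 and 4 to its left, and in BMDM 29 to the right and 10 to the left. Of all tested genes, 7.36% were called higher and 5.57% lower in resident cells, and 28.3% and 29.5% in BMDM.

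Genes with the profile most like a member were sought by the root mean square difference of centred log2 values over the 10 libraries. For Il1b they were Gbp5 (0.44), Ifi205 (0.46) and the complement gene Cfb (0.56), and for Il1rn the chemokine-binding receptor gene Ccrl2 (0.21), Plet1 (0.26) and the cytokine gene Tnf (0.27). Nlrp3 was nearest to the coagulation factor gene F10 (0.23), Zc3h12c (0.24) and Map3k8 (0.25). Il1r2 was nearest to the kinase gene Fgr (0.18), the folate enzyme gene Mthfd2 (0.18) and Glrp1 (0.18). The likeness is a description over 4 groups, in which many genes share an order of levels.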

How the data were processed

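RNA from 10 mouse libraries was sequenced after NEBNext Ultra library preparation, per the labels' protocols, and HISAT 0.1.7 and build mm10 are listed in the submitters' processing notes. The deposited signal values are gene reads divided by 1 factor per library with a floor of 1: in every library a single step (0.892 to 1.35) divides 100% of the values between the floor and 1000 reads into whole numbers, within 0.02. The sources used here name no counter, annotation or strand setting. Library depth was 27.1 to 37.7 M reads, taking that step as 1 read. Log2 of value plus 1 was fitted with limma 3.58.1 in R 4.3.3, with a variance trend, as 4 groups in 1 model (6 residual degrees of freedom) over the 13755 genes that reached 10 in 2 or more libraries. P-values are 2-sided and Benjamini-Hochberg adjusted within each contrast. A rise or fall means an adjusted p under 0.05. The fit was tested on simulated data with the same spread in every group, so unequal spread between groups was not covered.

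Ratios were compared by 2-sided exact permutation tests over libraries. All members are named in every comparison, with, per list and LPS comparison, up to 3 largest called rises and 2 largest called falls among genes averaging 20 or more in the higher group. Members and lists were chosen with earlier results of these data known. Gene positions and lengths are from GENCODE M21. Figures were drawn with matplotlib 3.10.9. Alternatives were other pseudocounts, filters and scalings, no variance trend, only the groups compared, terms or exclusions for libraries with Y-linked transcripts, each library left out, and voom on recovered reads. In the list of other family genes, 3 of 11 (Il1f5, Il1f8, Il1f10) are not analysed here.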

Additional observations from a re-analysis of the deposited data

Results flagged for a closer look

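The change with LPS differed between resident cells and BMDM for 9 members by limma's test of the difference, resident minus BMDM, with 41.8% of all tested genes called by the same test. The log2 differences were -8.00 for Il1a, -7.83 for Il1b, -3.65 for Il1rn, -3.52 for Il18bp, -3.28 for Il18, -2.69 for Casp1, -2.13 for Nlrp3, -1.42 for Il1rap and -0.72 for Il1r2. The last was called in 8 of 21 alternatives. Groups of 2 or 3 libraries were not searched for outlying libraries.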

How the results depend on the processing

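The number of genes called for LPS in resident cells, 1779, was 529 with only the groups compared, 3449 with a covariate marking Y-linked transcripts, 2840 without both libraries that held them, and 970 to 2287 with 1 library left out (970 without resident LPS replicate 2, 1185 without resident untreated replicate 3). The counts of members called stayed within 1.5 times under every alternative run. Among single genes, ratios and their alternatives, 1219 values counted as unchanged, 22 lost a call, 10 gained one, 13 changed sign and 2 moved beyond the replicate spread. Each value was counted once, with a change of sign first, so the 10 leave out calls gained along with a change of sign. Those were Casp1 untreated and Il1rn under LPS with quantile normalization, and Il18bp under LPS with equal library totals, all for resident against BMDM. Unchanged meant the same sign and side of the threshold for a gene, but for a ratio only a shift within the replicate spread. Some unchanged ratios thus crossed 0 with LPS when 1 library was left out. Il1r2 to Il1r1 ranged from -0.32 to 0.16 in resident cells and from -0.81 to 0.44 in BMDM on the log2 scale. Il1a to Il1b ranged from -0.27 to 0.44 in BMDM. Single-gene sign changes for LPS in resident cells were Il1r2 at -0.072 with equal library totals, and Il1r1 at -0.12 without LPS replicate 2 and -0.07 without untreated replicate 3 (range -0.12 to 0.41 over libraries left out). For resident against BMDM they were Casp1 untreated at -0.19 (quantile normalization) and -0.0549 (equal totals), and under LPS Il1rn at 0.65 (quantile), 0.19 (equal totals) and 0.027 (without resident LPS replicate 3) and Il18bp at 0.012, 0.25 and 0.0099 under the same settings. With 1 library left out these ranged from -0.34 to 0.027 for Il1rn and from -0.15 to 0.0099 for Il18bp. For the difference of responses, the log2 ratio of Il1r2 to Il1r1 was -0.54 without BMDM untreated replicate 2 (0.71 without replicate 1, against 0.08), and that of Il1a to Il1b 0.18 without replicate 1 (-0.53 without replicate 2, against -0.17). The cause was not tested. Voom on recovered reads, chosen after seeing the data, called 1767, 7681, 9938, 9495 and 5401 genes over the 5 comparisons, against 1779, 7953, 9883, 9802 and 5752. The planned edgeR test was not run. The labels give no pairs, because the libraries are numbered 1 to 10 and no number is shared between groups, and replicate numbers within a group only follow the order of deposit. Every test therefore treated the libraries as unpaired. Resident replicates of equal number were alike in Y-linked transcripts. Their megakaryocyte marker sums were 0.0526%, 0.15% and 0.0927% with LPS and 0.0412%, 0.15% and 0.109% untreated, in replicate order. Whether they share a source was not tested. Groups of 2 and 3 libraries limit every ratio test, and Il1r1 and Il1r2 in BMDM rest on 29 to 85 reads a library.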
